A study of Mus musculus with 10 samples.

Results

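The collagen genes of MC3T3-E1 cells were described across 10 RNA-sequencing libraries. Every row of the deposited table whose gene symbol has the form Col, a type number, a and a chain number was taken as a member, which gave 44 of the 29583 rows. All 44 carry an Ensembl identifier, as do 22036 rows of the table. By class they comprised 11 fibrillar, 9 FACIT (fibril-associated collagens with interrupted triple helices), 6 basement membrane, 6 beaded filament, 4 transmembrane, 3 short chain and 2 multiplexin genes, 1 anchoring fibril gene and 2 genes outside these classes. MC3T3-E1 is a mouse line of osteoblast precursors from newborn C57BL/6 skull, and the study used its subclone 14. The plant sterol β-ecdysterone was given in standard medium at 0, 100, 150 or 200 μM, and RNA was taken after 5 or 10 days. There was 1 library per dose and day. The replicates of treated cells were thus the 3 doses of each day (6 libraries), against a single 0 μM library for each day (2 libraries). A pair of further libraries, A-5 and B-4, were labelled as untreated with no dose and no time. All 10 libraries came from the same line, and the labels also call its source bone marrow mesenchymal stem cells. The paper's methods, and not the labels, give a replicate number for the RNA extraction. Neither the methods nor the labels say whether a library pools such extractions or whether libraries came from separate cultures. Reported p-values therefore measure the spread between these libraries only.

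Collagens are proteins of 3 chains wound into a triple helix, secreted as procollagen and assembled outside the cell. Fibrillar collagens form the cables of bone, tendon and cartilage, and type I, made of chains from Col1a1 and Col1a2, is the main protein of bone matrix. FACIT collagens sit on the surface of fibrils, type VI forms beaded filaments around cells, type IV forms the network of basement membranes, and transmembrane collagens are anchored in the cell surface.

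Stretches of promoter are shown for the type VI chains, whose transcripts were higher together in treated cells, for both type VIII chains, which went opposite ways, and for Col3a1. They are the 120 bases before the RefSeq transcript start (GRCm38.p6), written 5′ to 3′ on the strand of the gene. Those of Col6a1 and Col6a2 lie inside the genes as placed by GENCODE M21, which reach 76726168 and 76623630. Col6a2 had 2 RefSeq windows, not both shown. Capitals mark the hexamer GGGCGG, known as the GC box, which reads as CCGCCC when it lies on the other strand, and the hexamer TATAAA of the TATA box. Where 2 matches overlap, the capitals run together.
Col6a1, chr10:76726045-76726164, minus strand: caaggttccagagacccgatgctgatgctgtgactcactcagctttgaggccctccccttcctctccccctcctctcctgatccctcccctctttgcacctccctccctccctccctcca
Col6a2, chr10:76623405-76623524, minus strand: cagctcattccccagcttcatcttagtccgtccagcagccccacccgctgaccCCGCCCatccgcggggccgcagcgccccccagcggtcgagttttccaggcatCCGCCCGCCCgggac
Col6a3, chr1:90843972-90844091, minus strand: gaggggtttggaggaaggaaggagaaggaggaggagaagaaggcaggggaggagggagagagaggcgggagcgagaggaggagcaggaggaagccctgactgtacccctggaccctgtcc
Col8a1, chr16:57754738-57754857, minus strand: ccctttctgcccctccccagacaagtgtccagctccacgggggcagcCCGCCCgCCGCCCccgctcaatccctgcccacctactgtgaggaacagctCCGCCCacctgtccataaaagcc
Col8a2, chr4:126286674-126286793, plus strand: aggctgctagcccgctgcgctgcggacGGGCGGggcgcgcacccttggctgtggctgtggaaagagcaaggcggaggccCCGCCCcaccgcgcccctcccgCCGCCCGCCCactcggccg
Col3a1, chr1:45311418-45311537, plus strand: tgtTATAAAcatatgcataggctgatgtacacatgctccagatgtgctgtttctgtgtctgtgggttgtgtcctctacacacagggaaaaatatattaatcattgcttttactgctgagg
The stretches of Col6a1 and Col6a3 held neither motif, that of Col6a2 held GGGCGG, and both type VIII stretches held it too. RefSeq windows from 250 bases before to 50 bases after the start were at hand for 35 of the 44 genes (38 windows). GGGCGG on either strand was in 60.5% of the 38 windows and in 35.7% of all 32851 windows, and TATAAA was in 13.2% and 13.6%. CCAAT was in 34.2% and 37.4%, and AACCACA, the core that Runx factors read, in 2.63% and 5.27%. A match is a description of the letters and not a shown binding site.

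The libraries held between 27108562 and 58218009 counts. A gene without a count may still have had up to 3, equal to 0.0515 to 0.111 CPM (counts scaled to the library total) depending on the library, by counting error alone. The osteoblast marker Runx2 was present at 0 μM, on day 5 and day 10, with 16.3 and 14.8 FPKM (fragments scaled to transcript length and library size, as deposited). Sp7, the osterix gene, was low there with 1.86 and 1.53 FPKM, and Alpl, which encodes alkaline phosphatase, had 0 and 2 counts at 0 μM against 486 to 3460 counts in treated libraries. By the calls against 0 μM defined below, 4 of 12 osteoblast markers were higher and 1 was lower in treated cells. All 12 proliferation markers were called lower. The shares over all genes tested were 13.4% higher and 5.98% lower. Summed, the proliferation markers had 674 and 737 FPKM at 0 μM and 167 to 337 FPKM in treated cells. Their sum was 465 FPKM in A-5 and 72.4 FPKM in B-4. The marker lists moved with treatment, and their part in the collagen results was not tested. In such bulk samples a larger share of cells of a type and more RNA per cell cannot be told apart.

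Collagen transcripts took 3.46% of all counts at 0 μM on day 5 and 4.02% on day 10. Treated libraries gave 4.34% ± 0.505 (SD, n = 6), from 3.37% at 150 μM on day 5 to 4.80% at 150 μM on day 10, so the groups overlapped. Within this share, type I and the fibrillar, beaded filament, short chain and transmembrane classes did not overlap between treated cells and 0 μM. Type I took 60.2% and 61.8% of collagen counts at 0 μM and 46.8% to 59.2% in treated cells, and the other collagens together took 1.38% and 1.53% of all counts at 0 μM and 1.79% to 2.19% in treated cells. In length-scaled levels, the beaded filament class went from 10.8% and 11.1% of summed collagen FPKM to between 17.2% and 20.3%, and the fibrillar class from 75.1% and 76.6% to between 65.9% and 73.3%. The untreated A-5 and B-4 also lay below 0 μM, at 55.0% and 46.1% of collagen counts for type I and 69.5% and 63.5% of summed FPKM for the fibrillar class. The short chain share was 1.67% and 1.48% at 0 μM, 0.767% to 1.44% in treated cells, and 2.19% and 1.44% in A-5 and B-4. The rare transmembrane class had 0.00374% and 0.004% at 0 μM and 0.00406% to 0.00609% in treated cells. The FACIT class (8.86% and 7.83% at 0 μM, 5.71% to 10.2% in treated cells) and the basement membrane class (3.36% and 2.82%, 2.81% to 3.36%) overlapped. These shares are relative to each other, so that a gain of one class lowers the rest, and no test was run on them.

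**Figure D1:**
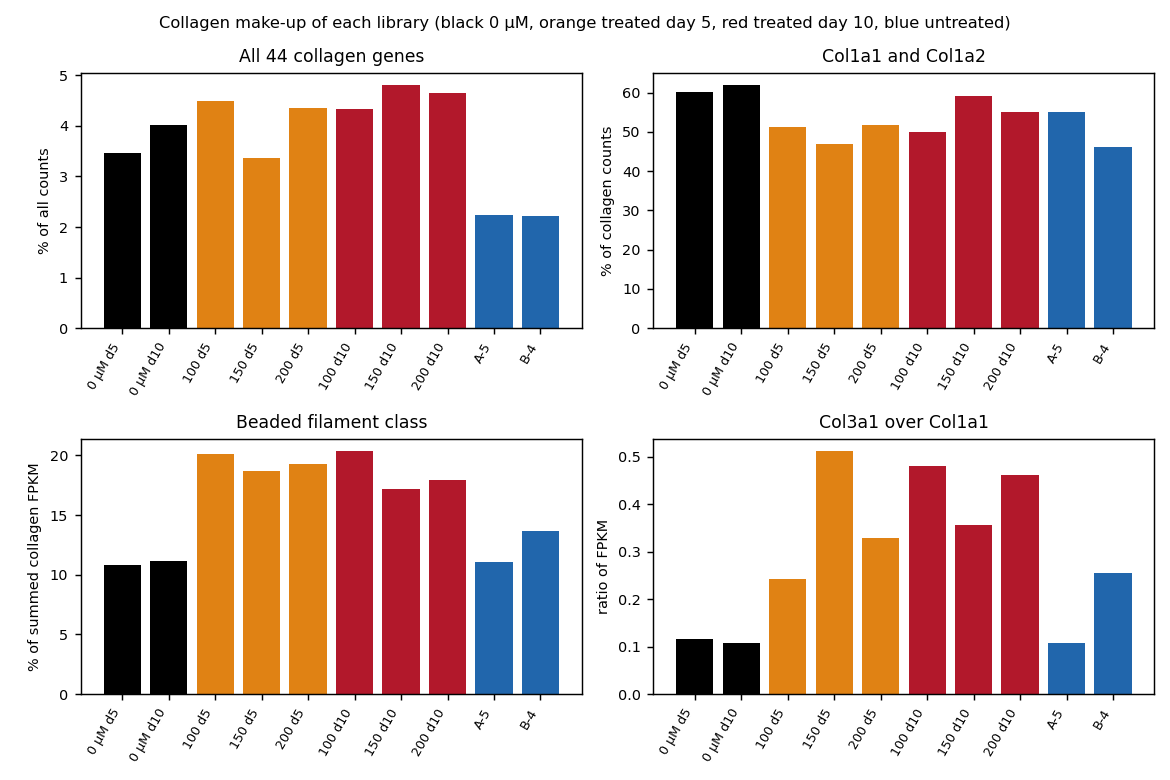
Each bar is 1 library. The panels show the share of all counts from the 44 collagen genes (%), the share of collagen counts from Col1a1 and Col1a2 (%), the share of summed collagen FPKM from the beaded filament class (%) and the ratio of Col3a1 to Col1a1 FPKM. Beaded filament shares of 17.2% to 20.3% in the treated libraries stand above the 13.6% or less of the other libraries, and A-5 and B-4 have the smallest collagen shares of counts (2.24% and 2.22%).

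The effect of β-ecdysterone was tested between the treated and the 0 μM libraries with edgeR (quasi-likelihood, day in the model) on all 16794 genes left by its filter on low counts. Calls needed a change of more than 2-fold (1 on the log2 scale) and an adjusted p under 0.05 (Benjamini-Hochberg, over all genes tested). Of the 44 collagen genes, 39 passed the filter. Of these, 12 were called higher and 2 lower in treated cells. Col4a3, Col6a5, Col9a2, Col15a1 and Col23a1, all among the 12, had too few counts at 0 μM to pass the filter without the treated libraries. Only a rise could be called for them. Among all genes tested, 13.4% were called higher and 5.98% lower, and among the 14053 tested genes with an Ensembl identifier 10.1% and 6.31%. At an adjusted p under 0.05 without the fold limit, 18 were higher and 3 lower, while 22.6% of all genes tested were higher and 20.8% lower. The median log2 fold change was 0.39 over the 39 collagen genes and 0.046 over all genes tested. The 6 treated FPKM values all lay above both 0 μM values for 18 of the 39 and all below for 5 (23.8% and 27.2% of all genes tested). The remaining 5 members did not pass the filter: Col13a1, Col14a1, Col19a1, Col25a1 and Col6a6 had at most 13 counts in any library. The transcripts of 24 collagen genes had a mean of at least 1 FPKM over the 8 libraries with a dose, and the other 20 lay at or below 0.935 FPKM.

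**Figure D2:**
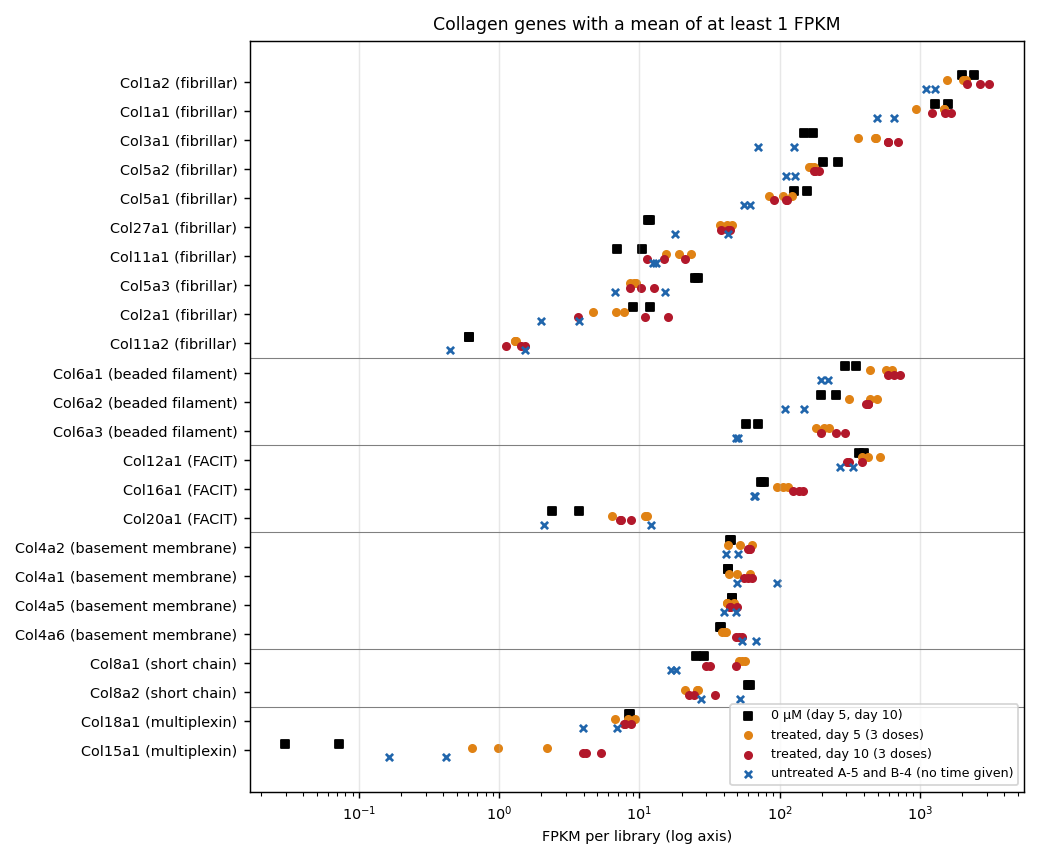
The horizontal axis gives FPKM in each library on a log scale for the 24 collagen genes with a mean of at least 1 FPKM, ordered by level within their class. Squares are 0 μM, orange and red circles are treated cells on day 5 and day 10, and crosses are the untreated libraries. Levels span from 0.0298 FPKM (Col15a1 at 0 μM on day 10) to 3130 FPKM (Col1a2 at 150 μM on day 10), and the treated circles of Col3a1, Col27a1 and Col6a3 stand clear of the squares.

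Within the fibrillar class, all 11 genes were tested, 5 were called higher and 1 lower, and the class median log2 fold change was 0.09. The most abundant members, Col1a1 and Col1a2 of type I, were not called. Col1a1 had 1280 FPKM at 0 μM on day 5 and 1590 FPKM on day 10. In treated cells it had 1490, 938 and 1480 FPKM at 100, 150 and 200 μM on day 5 and 1230, 1660 and 1520 FPKM on day 10. Its treated values lay on both sides of 0 μM, with the lowest at 150 μM on day 5. Its log2 fold change was 0.01 ± 0.20 (SE; adjusted p = 0.977, edgeR). Col1a2 had 2000 and 2420 FPKM at 0 μM and 2140, 1570, 2040, 2180, 3130 and 2690 FPKM in treated cells in the same order, with a log2 fold change of 0.09 ± 0.18 (adjusted p = 0.711). The ratio of Col1a2 to Col1a1 FPKM was 1.56 and 1.52 at 0 μM and 1.38 to 1.88 in treated cells, so that the groups overlapped here too.

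Col3a1, the chain of type III collagen found with type I in soft tissue and early matrix, rose 3.39-fold. It had 149 and 173 FPKM at 0 μM, 362, 480 and 489 FPKM at 100, 150 and 200 μM on day 5, and 592, 590 and 701 FPKM on day 10. The groups did not overlap, and each dose was higher on day 10 than on day 5. The log2 fold change was 1.76 ± 0.16 (adjusted p = 3.5e-05, edgeR), and the ratio of Col3a1 to Col1a1 FPKM went from 0.116 and 0.109 at 0 μM to between 0.242 and 0.512. Col3a1 lies on chromosome 1 (45311538 to 45349706, plus strand, GENCODE M21 on GRCm38), 24614 bases from the end of Col5a2 (45374321 to 45503282, minus strand). Col5a2 went the other way, with 204 and 262 FPKM at 0 μM and 161 to 190 FPKM in treated cells, a log2 fold change of -0.35 ± 0.10 (adjusted p = 0.0159, and 0.18 at -0.28 without the day 10 library at 0 μM).

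Against 0 μM, the type V chains, which set the width of type I fibrils, were lower or showed no call. Col5a3 fell to 0.397 of its level, from 26.0 and 24.9 FPKM at 0 μM to 9.47, 9.21 and 8.57 FPKM at 100, 150 and 200 μM on day 5 and 8.56, 10.2 and 12.8 FPKM on day 10. All 6 treated libraries lay below both 0 μM libraries, with a log2 fold change of -1.33 ± 0.12 (adjusted p = 3.4e-05, edgeR). Col5a1, the main chain with Col5a2, had 126 and 157 FPKM at 0 μM and 83.9 to 123 FPKM in treated cells. Its log2 fold change of -0.38 ± 0.15 did not pass the test (adjusted p = 0.0708), although the groups did not overlap. Against the untreated libraries, Col5a1 was instead higher in treated cells, at 0.86 ± 0.19 (adjusted p = 0.0126, edgeR). Col5a2 was higher there too, at 0.57 ± 0.14 (adjusted p = 0.0239, edgeR).

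Among the fibrillar genes known from cartilage, the type XI chains and Col27a1 rose and Col2a1 did not. Col27a1 (chromosome 4, 63214004 to 63334991) had 11.9 and 11.5 FPKM at 0 μM and 45.6, 37.6, 42.3, 38.1, 42.7 and 44.4 FPKM in treated cells, ordered as 100, 150 and 200 μM on day 5 and then on day 10. This was a narrow range with no overlap, and its log2 fold change of 1.88 ± 0.12 had an adjusted p of 4.3e-06 (edgeR). Col11a1 had 6.92 and 10.5 FPKM at 0 μM and 23.2, 15.5, 19.3, 21.0, 11.3 and 15.1 FPKM in treated cells. Its lowest treated library, 150 μM on day 10, stood close to 0 μM of that day. The log2 fold change was 1.07 ± 0.28 (adjusted p = 0.012, edgeR), and the call ended when the day 5 library at 0 μM was left out (0.69, adjusted p = 0.15) or either library at 100 μM was (0.98 and 0.93). Col11a2 had 0.614 and 0.611 FPKM at 0 μM and 1.11 to 1.52 FPKM in treated cells (log2 fold change 1.10 ± 0.16). Col2a1, the main chain of cartilage fibrils, had 9.07 and 12.0 FPKM at 0 μM and 3.65 to 15.9 FPKM in treated cells, with an adjusted p of 0.541 (edgeR). Col24a1 was called at a low level, with 61 and 38 counts at 0 μM and 101 to 244 counts in treated libraries (log2 fold change 1.84 ± 0.33); it falls below the level set for naming and is added because its call was seen. Among 13 chondrocyte markers, 6 of the 9 tested were called higher, beside 13.4% of all genes tested. Their summed level was 11.2 and 10.3 FPKM at 0 μM and 17.9 to 25.4 FPKM in treated cells, mostly from Sox9, while Acan, the main cartilage proteoglycan, had 0 counts at 0 μM and at most 8 counts in treated libraries. Their part in these values was not tested.

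**Figure D3:**
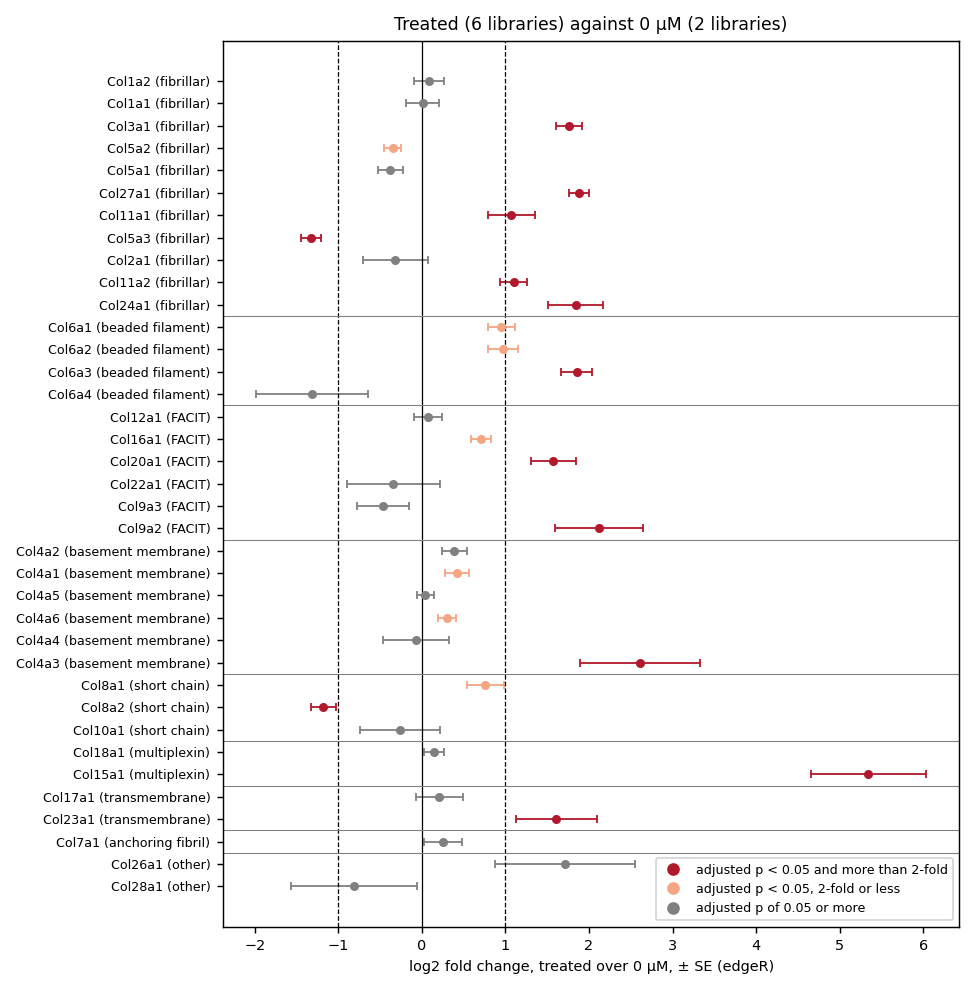
Points are log2 fold changes of the 6 treated libraries over the 2 libraries at 0 μM, with bars of ± SE from edgeR, for 37 of the 39 tested collagen genes. Col6a5 and Col9a1, with at most 2 counts at 0 μM, are left out. Dark red points passed both limits, light red points passed the adjusted p alone and grey points did not pass it. Col15a1 lies farthest right at 5.34, and Col5a3 and Col8a2 are the dark points left of 0.

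In the beaded filament class, the 3 chains of classical type VI collagen rose together. Col6a1 had 292 and 353 FPKM at 0 μM, 635, 440 and 571 FPKM at 100, 150 and 200 μM on day 5 and 598, 720 and 653 FPKM on day 10. Col6a2 had 198 and 253 FPKM at 0 μM and 497, 311, 443, 427, 430 and 412 FPKM in treated cells in that order. Col6a3 had 57.9 and 70.6 FPKM at 0 μM and 208, 182, 225, 294, 199 and 253 FPKM in treated cells. All treated values of the 3 genes lay above both 0 μM values, and the lowest of each was 150 μM on day 5. Col6a3 was called, with a log2 fold change of 1.85 ± 0.19 (adjusted p = 5.7e-05, edgeR). Col6a1 and Col6a2 passed the test but not the fold limit, at 0.95 ± 0.16 (adjusted p = 0.0012) and 0.97 ± 0.18 (adjusted p = 0.00228), and without the library at 150 μM on day 5 both were called (1.03 and 1.05). The ratio of Col6a1 to Col6a2 FPKM was 1.48 and 1.40 at 0 μM and 1.28 to 1.68 in treated cells. The ratio of Col6a1 to Col6a3 FPKM was 5.05 and 5.00 at 0 μM and 2.03 to 3.62 in treated cells. Col6a1 and Col6a2 lie 85161 bases apart on the same strand of chromosome 10, while Col6a3 lies on chromosome 1.

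The other beaded filament chains were rare. Col6a5 had 0 and 2 counts at 0 μM and 27, 56 and 30 counts at 100, 150 and 200 μM on day 5 and 67, 152 and 211 counts on day 10. Summed over libraries, its CPM ratio of treated to 0 μM was 85.2, with an exact 95% interval of 23.5 to 705 for counting error only. It was called higher (adjusted p = 3.1e-05, edgeR), having passed the filter only through treated libraries. It is named outside the level limit because its call was seen. Col6a4 lay lower in all 6 treated libraries, at 0 to 0.0458 FPKM against 0.0760 and 0.0548 FPKM, and did not pass the test (adjusted p = 0.136, edgeR). Of the 6 genes in the class, 5 were tested and 2 were called, both higher. The class median was 0.97 on the log2 scale, also with Col6a5 set against 3 counts at 0 μM.

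Among the FACIT genes, 7 of 9 were tested, 2 were called higher (Col20a1 and Col9a2), and the class median log2 fold change was 0.71, also with Col9a1 set against 3 counts at 0 μM. Col12a1, which coats type I fibrils and was the most abundant of the class, had 367 FPKM at 0 μM on day 5 and 398 FPKM on day 10. It had 519, 390 and 429 FPKM at 100, 150 and 200 μM on day 5 and 386, 313 and 304 FPKM on day 10. All 3 doses were above 0 μM on day 5 and all 3 were below it on day 10, by amounts that did not pass the test of the difference between days (log2 -0.44 ± 0.32, adjusted p = 0.769, edgeR). Col16a1 rose 1.63-fold, from 77.6 and 73.4 FPKM at 0 μM to 96.0, 114, 106, 137, 125 and 148 FPKM in treated cells (log2 fold change 0.71 ± 0.12, adjusted p = 0.00127, edgeR). Its groups did not overlap, and the change stayed below the fold limit.

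Col20a1 had 2.40 and 3.70 FPKM at 0 μM and 11.3, 6.39 and 10.9 FPKM at 100, 150 and 200 μM on day 5. On day 10 it had 7.22, 8.66 and 7.40 FPKM. The groups did not overlap, and the log2 fold change was 1.57 ± 0.27 (adjusted p = 0.00126, edgeR). The type IX chains, known from cartilage, differed. Col9a2 had 11 and 3 counts at 0 μM and 14 to 68 counts in treated libraries (log2 fold change 2.12 ± 0.53, adjusted p = 0.00907), Col9a3 had 0.653 and 0.685 FPKM at 0 μM and 0.266 to 0.711 FPKM in treated cells (adjusted p = 0.249, edgeR), and Col9a1 had 0 counts in 3 of the 6 treated libraries and in both at 0 μM. Col9a2 passed the filter only through treated libraries, is below the level limit and is named because its call was seen. It was no longer called when the day 10 library at 0 μM was left out (1.34, adjusted p = 0.12).

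In the basement membrane class, all 6 genes were tested and the changes in the abundant chains were small. Col4a1 had 42.8 and 43.0 FPKM at 0 μM and 61.1, 43.8, 50.1, 55.7, 64.0 and 59.9 FPKM in treated cells, ordered as before by dose within day 5 and then day 10. Its lowest treated library, 150 μM on day 5, was barely above 0 μM, and the log2 fold change was 0.42 ± 0.14 (adjusted p = 0.0364, edgeR). Of the 8 fits that each left out 1 library, 7 gave Col4a1 an adjusted p above 0.05, from 0.051 to 0.34, and the lowest value was 0.28, without the day 10 library at 0 μM. Col4a2 had 44.8 and 44.5 FPKM at 0 μM and 63.2, 42.7, 52.1, 59.6, 60.3 and 61.5 FPKM in treated cells. Its log2 fold change of 0.39 ± 0.15 did not pass the test (adjusted p = 0.0641). The genes of Col4a1 and Col4a2 overlap at their starts by 22 bases on opposite strands of chromosome 8, and their FPKM ratio was 0.955 and 0.967 at 0 μM and 0.933 to 1.06 in treated cells. Col4a6 had 37.7 and 38.2 FPKM at 0 μM and 38.7 to 54.1 FPKM in treated cells (log2 fold change 0.30 ± 0.11, adjusted p = 0.0483, edgeR), with an adjusted p above 0.05 in 6 of those 8 fits. Its neighbour Col4a5 on chromosome X had 45.5 and 46.0 FPKM against 42.2 to 49.5 FPKM (adjusted p = 0.763, edgeR). The kidney and lung chains Col4a3 and Col4a4 were near the detection limit. Col4a3 had 5 and 0 counts at 0 μM and 11 to 22 counts in treated libraries, through which alone it passed the filter. It was the 1 gene of the class called. That call ended when the day 10 library at 0 μM was left out (1.89, adjusted p = 0.1), and its name is given because its call was seen.

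Of the short chain genes, which form the hexagonal nets of type VIII collagen and the growth plate collagen Col10a1, the type VIII chains moved in opposite directions. Col8a1 had 25.4 and 28.9 FPKM at 0 μM, 53.8, 51.0 and 56.5 FPKM at 100, 150 and 200 μM on day 5 and 48.9, 30.1 and 32.0 FPKM on day 10. Its treated values at 150 and 200 μM on day 10 lay just above 0 μM, and its log2 fold change was 0.76 ± 0.22 (adjusted p = 0.0187, edgeR). Without the day 5 library at 0 μM it was 0.46 (adjusted p = 0.23, edgeR), and without the day 10 one 1.08 (adjusted p = 0.022, edgeR), past the fold limit. Col8a2 had 59.1 and 61.3 FPKM at 0 μM and 25.8, 21.0, 26.2, 22.7, 34.5 and 24.5 FPKM in treated cells. No treated value came near 0 μM, and the log2 fold change was -1.18 ± 0.15 (adjusted p = 0.00023, edgeR). The ratio of Col8a1 to Col8a2 FPKM was 0.430 and 0.470 at 0 μM and 0.872 to 2.43 in treated cells. Col10a1, a marker of hypertrophic cartilage, stayed at or below 0.0936 FPKM in all 8 libraries with a dose (adjusted p = 0.687, edgeR). The class median log2 fold change was -0.26.

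The multiplexin Col15a1, a collagen of basement membrane zones, had the largest fitted fold change among members with more than 3 counts at 0 μM. It had 21 and 6 counts at 0 μM, 114, 735 and 171 counts at 100, 150 and 200 μM on day 5 and 620, 1325 and 1606 counts on day 10. Per length and depth this was 0.0726 and 0.0298 FPKM at 0 μM, 0.643, 2.21 and 0.976 FPKM on day 5 and 3.94, 4.13 and 5.31 FPKM on day 10. The groups did not overlap, each treated library on day 10 was above each on day 5, and the log2 fold change was 5.34 ± 0.69 (adjusted p = 0.00024, edgeR). Leaving out 1 library gave values from 4.13 to 7.11. The other multiplexin, Col18a1, whose end fragment is endostatin, had 8.40 and 8.59 FPKM at 0 μM and 6.73 to 9.34 FPKM in treated cells (adjusted p = 0.364, edgeR). Of 5 endothelial markers tested, 3 were called higher, beside 13.4% of all genes tested. Their summed level was only 0.315 and 0.340 FPKM at 0 μM and 0.785 to 1.21 FPKM in treated cells. Their part in the Col15a1 values was not tested.

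Transmembrane collagens were near the limit of detection. Of the 4 genes, 2 were tested and 1, Col23a1, was called higher, having passed the filter only through treated libraries. Col23a1 had 0.0258 and 0.0173 FPKM at 0 μM and 0.0522 to 0.104 FPKM in treated cells (log2 fold change 1.61 ± 0.49, adjusted p = 0.0242, edgeR). Its call ended when the day 5 library at 0 μM (1.89, adjusted p = 0.095) or the day 10 one (1.40, adjusted p = 0.17) was left out. Col17a1 had 0.164 and 0.226 FPKM at 0 μM and 0.167 to 0.276 FPKM in treated cells (adjusted p = 0.562, edgeR). Col25a1 had 0 counts in both 0 μM libraries and 3 to 10 counts in each treated library, summing to 37 counts, which is at least 3.87-fold higher against 3 counts over the 0 μM group. Col13a1 had 2 counts in 1 of the 10 libraries. The anchoring fibril gene Col7a1 had 0.169 and 0.196 FPKM at 0 μM and 0.177 to 0.252 FPKM in treated cells (adjusted p = 0.4, edgeR). Col26a1 and Col28a1, outside the classes, stayed at or below 0.154 FPKM in the libraries with a dose and did not pass the test (adjusted p = 0.126 and 0.403, edgeR).

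The time in culture was compared within treated cells, day 10 against day 5, in an edgeR model of the 4 combinations of treatment and day. With 1 library at 0 μM per day, the spread in this model comes from treated libraries alone. The same holds for the difference of the treatment effect between days below. Of the 39 tested collagen genes, 2 were called higher on day 10, Col6a5 and Col15a1. Among all genes tested, 0.863% were called higher. The count called lower was 0 of 39 by edgeR and 0 by DESeq2, with 2 collagen genes lower at an unadjusted p under 0.05, and 0.161% of all genes were called lower. Col15a1 differed by 1.86 ± 0.35 on the log2 scale (adjusted p = 0.0308) and Col6a5 by 1.76 ± 0.26 (adjusted p = 0.0166, edgeR). Both calls ended without either library at 200 μM, although the differences stayed close: without that of day 5 they were 1.71 for Col15a1 (adjusted p = 0.17) and 1.80 for Col6a5 (0.098), and without that of day 10 they were 1.75 (0.13) and 1.54 (0.088). Col4a6 was higher on day 10 by 0.44 ± 0.09 (adjusted p = 0.0421), below the fold limit, and did not pass in any of the 6 fits without 1 treated library (adjusted p = 0.058 to 0.18). Col3a1 at 0.58 ± 0.14 and Col16a1 at 0.39 ± 0.10 had adjusted p = 0.0587 and 0.0793 (edgeR). With dose as a block Col3a1 was 0.60 (adjusted p = 0.039, edgeR), and DESeq2 gave adjusted p = 0.00022 for Col3a1 and 0.0043 for Col16a1. Of the 39 differences 29 were above 0, with a median of 0.20 against -0.003 over all genes tested. Library totals in place of TMM shifted the median of all genes in this comparison by -0.13.

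The difference of the treatment effect between days was called for 0 of 39 collagen genes by edgeR and 0 by DESeq2 (2 of 16794 genes in all by edgeR, 0.0119%), with 3 collagen genes at an unadjusted p under 0.05. The lowest of these was 0.031 for Col22a1, which had 1.58 and 0.656 FPKM at 0 μM on days 5 and 10.

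**Figure D4:**
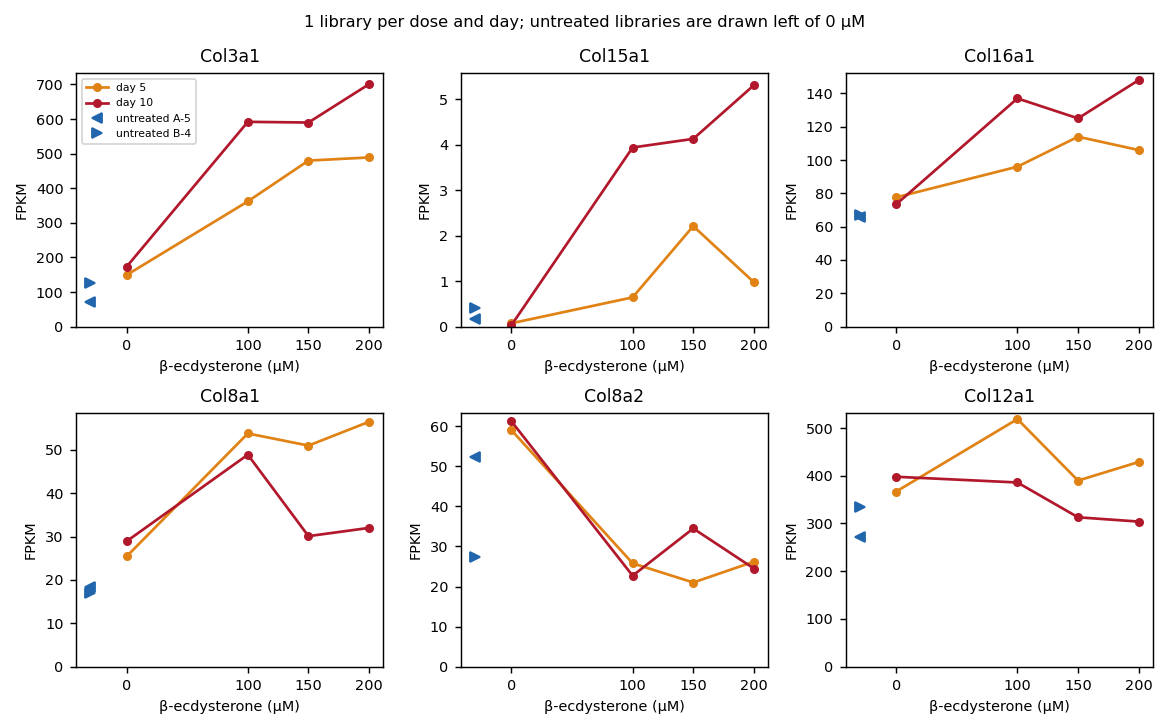
Each panel plots FPKM against the β-ecdysterone dose (μM) for 1 gene, with 1 library per point, day 5 in orange and day 10 in red. Blue triangles left of 0 μM are the untreated libraries A-5 and B-4. Col3a1, Col15a1 and Col16a1 are higher on day 10 than on day 5 at each dose from 100 to 200 μM, Col8a1 and Col12a1 lower, and Col8a2 falls from 59.1 and 61.3 FPKM at 0 μM to 34.5 FPKM or less.

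A dose trend over 100, 150 and 200 μM was fitted in treated cells alone (6 libraries, day in the model). None of the 35 collagen genes tested had an adjusted p under 0.05 by edgeR and 0 by DESeq2, and none had an unadjusted p under 0.05, the lowest being 0.0514 for Col24a1 (-0.66 ± 0.29 on the log2 scale per 100 μM). Among all 16020 genes tested, 0.0% (0 genes) passed and 380 had an unadjusted p under 0.05. Col1a1 had a slope of 0.08 ± 0.26 and Col3a1 one of 0.28 ± 0.17 per 100 μM. Slopes were above 0 for 19 of the 35.

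The untreated libraries A-5 and B-4 were set beside the dosed cells. With no test run between control libraries, they were lower than cells at 0 μM in type I collagen, with 654 and 492 FPKM of Col1a1 against 1280 and 1590 FPKM and 1280 and 1100 FPKM of Col1a2 against 2000 and 2420 FPKM. They also differed from each other. B-4 had 43.0 FPKM of Col27a1, 12.2 FPKM of Col20a1 and 1.52 FPKM of Col11a2, each within or above the range of treated cells, while A-5 had 18.1, 2.09 and 0.443 FPKM. For Col3a1 (70.3 and 126 FPKM) and Col6a3 (49.3 and 50.2 FPKM), both lay below 0 μM. B-4 also had the highest Col4a1 of all libraries, 95.4 FPKM, with 50.7 FPKM of Col4a2, and a Col4a1 to Col4a2 ratio of 1.88. Its proliferation markers had the lowest summed level of the 10 libraries.

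When A-5 and B-4 replaced the 0 μM libraries in a model without day, 36 collagen genes were tested, 9 were called higher and 0 lower by edgeR, with 1 lower at an unadjusted p under 0.05. Among all 16012 genes tested 6.73% were called higher and 2.87% lower. Both comparisons share the 6 treated libraries, and the share of all genes called in both is not given. The overlap below is thus a description only. Of the 12 genes called higher against 0 μM, 4 were also called here: Col3a1 (2.47 ± 0.36), Col6a3 (2.20 ± 0.26), Col9a2 (2.74 ± 0.60) and Col15a1 (3.33 ± 0.93 on the log2 scale). The 8 called against 0 μM alone were Col4a3, Col6a5, Col11a1, Col11a2, Col20a1, Col23a1, Col24a1 and Col27a1, which ranged from 0.27 (Col20a1) to 1.67 (Col6a5) here. The 5 called only here were Col1a1 at 1.31 ± 0.28 (adjusted p = 0.0126), Col6a1 at 1.55 ± 0.24, Col6a2 at 1.71 ± 0.24, Col8a1 at 1.39 ± 0.26 and Col17a1 at 1.24 ± 0.33 (adjusted p = 0.0273, edgeR). Neither gene called lower against 0 μM was called, with log2 fold changes of -0.11 ± 0.25 for Col5a3 and -0.59 ± 0.23 for Col8a2, and Col27a1 stood at 0.46 ± 0.28 (adjusted p = 0.27, edgeR). Against B-4 alone Col27a1 stood at -0.04. Medium and time of the untreated libraries are not in the labels, so their difference from 0 μM cannot be told apart from time in culture.

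**Figure D5:**
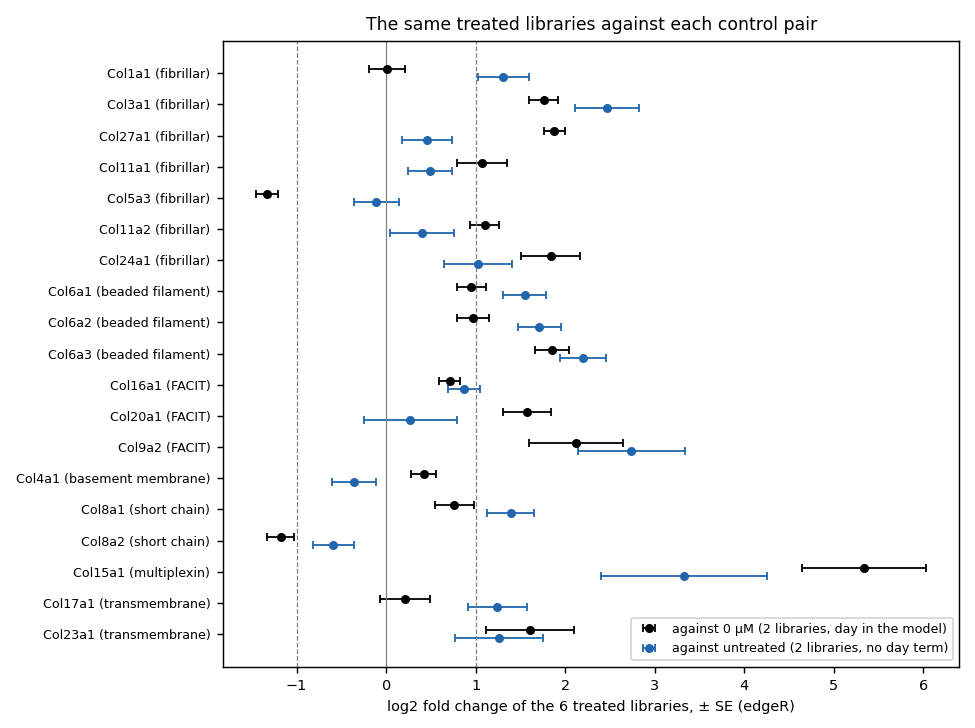
Log2 fold changes of the 6 treated libraries with bars of ± SE (edgeR) against the 2 libraries at 0 μM (black) and against the 2 untreated libraries (blue) for 19 collagen genes. Col3a1 and Col6a3 lie right of 1 in both, Col1a1 moves from 0.01 to 1.31, and Col5a3 moves from -1.33 to -0.11.

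Genes that build, handle and break down collagen were counted from lists of known roles in the same fit against 0 μM. That fit called 13.4% of all genes tested higher and 5.98% lower, the shares to set beside each list below. Of 15 genes for prolyl and lysyl modification 3 were called, all lower, with a median of 0.12 on the log2 scale. P4ha1, a catalytic subunit of prolyl 4-hydroxylase, fell from 93.2 and 86.6 FPKM at 0 μM to between 21.9 and 31.1 FPKM (-1.74 ± 0.11). Of 10 genes for folding and secretion 3 were called, all higher, with a median of 0.26. Sparc, a collagen-binding matrix protein also known as osteonectin, rose from 509 and 654 FPKM to between 907 and 2160 FPKM (1.30 ± 0.19). Of 11 tested genes for procollagen processing and crosslinking, 1 was higher and 1 lower, with a median of -0.11: Pcolce2, an enhancer of procollagen C-proteinase, had a log2 fold change of 2.92 ± 0.17 and Tgm2, a transglutaminase, one of -1.66 ± 0.13.

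Of 8 tested collagen receptors, 2 were higher and 1 lower (median 0.09). Itga10, an integrin chain that binds collagen, rose from 31.6 and 31.1 FPKM to between 140 and 162 FPKM (2.35 ± 0.12), and Mrc2, the receptor that takes up collagen fragments, fell from 135 and 132 FPKM to between 35.4 and 58.1 FPKM (-1.56 ± 0.13). Of 9 tested collagen-degrading proteases, 5 were higher and 1 lower, and the median of 1.49 stood beside 0.046 over all genes. Mmp13, a collagenase of bone and cartilage, had 6.29 and 9.94 FPKM at 0 μM and 89.9 to 510 FPKM in treated cells (4.69 ± 0.36, adjusted p = 1.1e-05, edgeR), while Mmp16, a membrane-bound protease, fell by 1.35 on the log2 scale. The tendon marker Fmod, which binds fibrils, rose from 49.4 and 55.0 FPKM to between 158 and 408 FPKM. For the tendon (Fmod included), adipocyte, muscle and macrophage or osteoclast markers, summed levels at 0 μM were 56.0 and 61.1, 2.03 and 1.82, 1.31 and 1.82, and 1.24 and 1.16 FPKM. In treated cells they were 163 to 413, 1.76 to 4.40, 4.46 to 6.96 and 0.716 to 1.08 FPKM, and 1 of 3 tested tendon, 1 of 4 adipocyte and 3 of 6 muscle markers were called higher, and 1 tendon marker was called lower. Of the 2 macrophage or osteoclast markers tested, 0 were called by edgeR or DESeq2 and 0 had an unadjusted p under 0.05. The part of these cell type markers in the collagen results was not tested.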

How the data were processed

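From mRNA selected on oligo(dT) beads and sequenced on an Illumina platform, the authors deposited 1 table with raw counts of reads per gene and FPKM values for 10 libraries. The submitters' processing notes name HISAT2 2.0.4 and GATK 3.2-2 without their role; the counting program, genome build, annotation and use of strand are not given in the sources used here. Columns with the authors' own edgeR results for library against library were not used. No column of values was without a sample.

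Counts were analysed with edgeR 4.0.16 in R 4.3.3: TMM, filterByExpr (minimum count 10), and quasi-likelihood tests on all genes, with the groups taken from the labels. Treated (6 libraries) was compared with 0 μM (2 libraries) with day as a covariate (5 residual degrees of freedom), days with a 4-group model, and dose as a number per 100 μM in the 6 treated libraries. Standard errors are the log2 fold change divided by the square root of F. Alternatives were DESeq2 1.42.0, limma 3.58.1 on log2(FPKM + 1), other scalings, filters and controls, and each library left out. Several alternatives (depth above 40000000 counts as a covariate, each untreated library alone, all controls together) were chosen after seeing the data. The edgeR and DESeq2 tests were tested on simulated data; limma was not. Tables and figures used Python 3.11.15, pandas 2.3.3, numpy 2.4.6 and matplotlib 3.10.9.

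The members and gene lists were chosen with earlier results of these data known. Members named with values were Col1a1, Col1a2, the 2 most abundant of each class and every member called at a mean of at least 1 FPKM in a group; others are given by range, or are said to be named after their values were seen. Of other lists, at most the largest called rise and fall with a mean of at least 5 CPM were named, beside markers that bear on cell identity. Gene positions are from GENCODE M21. Library totals ran from 27108562 to 58218009 counts; intervals and limits cover counting error only, since the reads carry no molecular identifiers.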

Additional observations from a re-analysis of the deposited data

Results flagged for a closer look

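Col12a1 was higher than 0 μM in all 3 treated libraries of day 5 (519, 390 and 429 against 367 FPKM) and lower in all 3 of day 10 (386, 313 and 304 against 398 FPKM), which singled it out as a result that differs between days. Each day had 1 library at 0 μM, so a test of this difference takes its spread from treated libraries alone. The test of the difference itself gave -0.44 on the log2 scale with an SE of 0.32 and an adjusted p of 0.769 (edgeR), so the difference did not pass. In none of the 24 named collagen genes did a single treated library stand apart from the other 5 by Dixon's test, which chance alone flags in about 1 in 20 groups.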

How the results depend on the processing

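The treated and 0 μM libraries share their days, and day was a covariate in the main fit. The labels give no other pairing between these groups. The treated libraries of both days share their doses, and with dose as a block the day comparison again called 2 genes, Col15a1 at 2.01 (adjusted p = 0.017, edgeR) and Col6a5. The 12 collagen genes called higher and 2 called lower against 0 μM stayed at 12 and 2 with DESeq2, with its size factors in edgeR, with unscaled library totals, without day and with depth as a covariate, and were 13 and 2 with a filter of at least 1 count in total, which added Col25a1. Limma on log2(FPKM + 1) called 5 higher and 2 lower, without Col4a3, Col6a5, Col9a2, Col11a1, Col11a2, Col23a1 and Col24a1. This scale shrinks the changes of low genes. Col11a1 was not low, with a mean of 15.3 FPKM, and stood at 0.92 by limma and 1.07 by edgeR. The cause of the lost calls was not tested. With untreated libraries as controls the count higher was 9 (both in place of 0 μM), 11 (A-5), 7 (B-4) and 9 (all controls), and the count lower was 0 in each of these 4 settings; the cause was not tested. The 21 genes at an adjusted p under 0.05 became 13, 14, 11 and 12 in these settings. Leaving out 1 library gave 10 to 14 called higher, 2 called lower and 15 to 22 at an adjusted p under 0.05. Of these alternatives, only both untreated libraries in place of 0 μM has shares called over all genes (6.73% higher, 2.87% lower). For the others no such share is given, so a change in the collagen count cannot be told apart from a change over all genes. The 2 genes called for day became 0 with limma and 0 to 2 on leaving out a library, with 0 without 200 μM of day 5 or of day 10. The count for the difference between days stayed at 0 in every setting, and the dose trend gave 0 on leaving out a library and 1 (Col2a1) with the filter of at least 1 count. The ratio of mean collagen shares, treated over 0 μM, was 1.16, 1.17 by FPKM and 1.08 to 1.25 on leaving out a library.

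Among the 24 genes named by the rule above, 5 of those that passed the adjusted p in either fit turned sign, each with untreated controls. Col4a1 went from 0.42 to -0.36 with both untreated libraries (adjusted p = 0.34, edgeR), -0.78 with B-4 and -0.01 with all controls. With B-4 alone Col5a3 went to 0.55, Col11a2 to -0.21, Col20a1 to -0.50 and Col27a1 to -0.04. Outside these 24 genes, Col5a2 went from -0.35 to 0.57 with both untreated libraries (adjusted p = 0.0239, edgeR). In the same comparison Col5a1 went from -0.38 to 0.86 (adjusted p = 0.0126) and Col4a6 from 0.30 to -0.37 (adjusted p = 0.16, edgeR). Col3a1 and Col6a3 kept their calls in all 19 alternatives. Depth limits the members under 1 FPKM, where 0 μM libraries held at most 61 counts for those called.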
